A study of Mus musculus with 24 samples.

Results

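This account follows 10 endothelial genes through the livers of mice fed a methionine-choline deficient (MCD) diet or its control diet. The genes were set by a fixed list of names that uses no measured value in its rule. Of these, 7 are markers of liver sinusoidal endothelial cells (Stab1, Stab2, Lyve1, Clec4g, Oit3, Fcgr2b and Kdr). The other 3 (Cd34, Plvap and Vwf) were listed as markers of continuous vessels. That name is the list's, since Plvap and Vwf mark other vessels of the liver as well. They are 10 of the 56205 genes in the count table, and all 10 were among the 14109 genes that passed the filter on low counts. The mice were C57BL/6J, male and female, with 6 animals of each sex on each diet. Each diet was given for 20 weeks, so there were 12 MCD libraries and 12 control libraries, 1 from each animal. The labels give no sex, litter or batch for a single library, and no age. Mice on an MCD diet lack methionine and choline in their food and develop fatty, inflamed and fibrotic livers. The diet's name follows the labels, since the study's methods list an MCD diet with high fat and its results a choline-deficient, amino acid-defined diet with high fat. The RNA was poly(A) RNA extracted from whole liver, so every value is an average over all cells of the organ.

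Liver sinusoids are lined by a specialized endothelium that has open pores (fenestrae) and almost no basal lamina, and that clears waste molecules from blood through scavenger receptors. In chronic liver injury these cells can lose their pores, lay down a basal lamina and take on markers of continuous capillaries, a change known as capillarization. Cd34 on sinusoids is a commonly used sign of it, whereas Plvap, which forms the diaphragms of fenestrae and caveolae, and Vwf, a clotting protein stored in endothelial granules, mark other vessels of the liver as well.

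Total counts ran from 16793207 to 24915175 per control library and from 16388650 to 24577848 per MCD library. Values are CPM, which are counts divided by library size and put on a common scale, after scaling with TMM factors, which set library sizes from the genes as a whole. These factors ran from 0.642 to 0.973 in control libraries and from 1.07 to 1.26 in MCD libraries and did not overlap, so the choice of scaling bears on every fold change below. Control replicate 12 had the lowest factor and stood apart from the other control libraries in several of the genes described here. Leaving it out moved the log2 fold change of Kdr from -1.12 to -1.16 and that of Oit3 from -1.19 to -1.22. The floor of 3 counts equalled 0.109 to 0.227 CPM, and all 10 genes were above it in all 24 libraries.

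In MCD livers, 4 of the 7 sinusoidal genes were lower and 1 of the 3 continuous-vessel genes was higher. The genes that fell were Oit3, Kdr, Stab2 and Clec4g, and the gene that rose was Cd34. Calls rest on edgeR's quasi-likelihood test, and the threshold was set at an FDR of at most 0.01 (Benjamini-Hochberg over all genes tested) together with a log2 fold change beyond 0.5 in either direction. Of all genes tested, 19.1% were called lower and 19.2% higher, 38.3% in all. The median log2 fold change was -0.53 over the 7 sinusoidal genes and -0.10 over all genes tested. The diets did not overlap at all for 2 of the 10 genes, Cd34 (higher) and Stab2 (lower), where 9.50% of all genes tested were separated upward and 4.88% downward. With total counts or on the endothelial scale described further on, Stab2 was not separated. In bulk tissue, fewer cells of a type and less RNA per cell cannot be told apart.

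**Figure D1:**
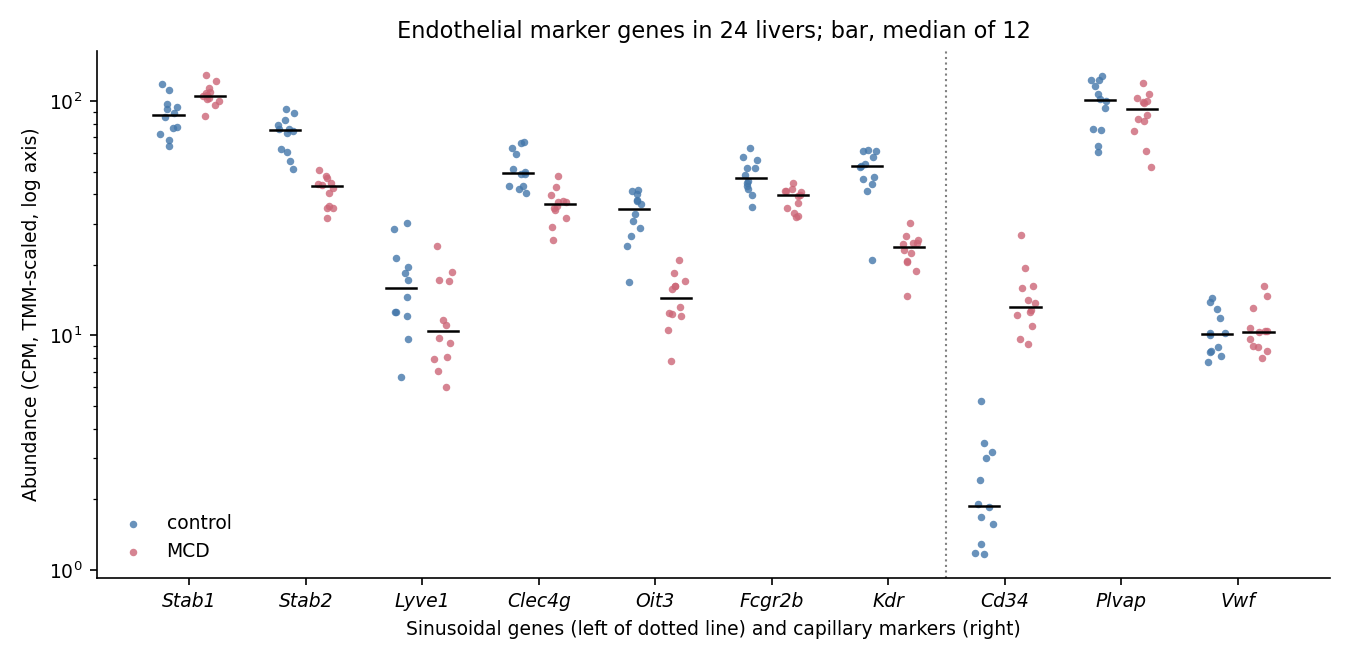
Abundance of the 10 genes in each of the 24 livers, as TMM-scaled CPM on a log axis, with control in blue, MCD in red and a bar at the median of 12 livers. Stab2 and Cd34 are the genes whose diets do not overlap, while the medians of Plvap (101 and 92.6 CPM) and Vwf (10.1 and 10.4 CPM) lie close together.

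The stabilins are a pair of large scavenger receptors of the sinusoid that take up hyaluronan and other ligands from blood. Stab1 lies at chr14:31139013-31168641 and Stab2 at chr10:86841198-87008025 (GRCm38, both on the minus strand). The windows around their annotated start sites are printed first, because the pair parted between the diets. Each window holds 300 bases, from 250 before to 50 after the start, taken from RefSeq on GRCm38.p6, and lies at chr14:31168592-31168891 for Stab1 and chr10:87007893-87008192 for Stab2. Capitals mark 6-base motifs of transcription factor families active in endothelium, searched on both strands.
Stab1: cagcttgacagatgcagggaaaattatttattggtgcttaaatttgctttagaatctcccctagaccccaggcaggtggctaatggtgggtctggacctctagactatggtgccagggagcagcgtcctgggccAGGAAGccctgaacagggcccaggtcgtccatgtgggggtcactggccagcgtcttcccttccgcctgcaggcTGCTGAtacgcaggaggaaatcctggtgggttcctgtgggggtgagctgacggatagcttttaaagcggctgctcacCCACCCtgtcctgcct
Stab2: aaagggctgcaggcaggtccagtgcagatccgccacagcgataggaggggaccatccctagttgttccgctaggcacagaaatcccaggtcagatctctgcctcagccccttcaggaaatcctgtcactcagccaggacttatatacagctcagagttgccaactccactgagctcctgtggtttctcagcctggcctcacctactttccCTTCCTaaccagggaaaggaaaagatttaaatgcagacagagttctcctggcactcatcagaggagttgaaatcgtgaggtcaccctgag
The Stab1 window held AGGAAG (ETS family) 116 bases before the start, at position -116, TGCTGA (MAF family) at -43 and CCACCC (KLF family) at 35 after it. The Stab2 window held a single match, AGGAAG on the opposite strand at -40, which reads CTTCCT above. AGGAAG occurred in 35.4% of the 32851 RefSeq windows of this length, CCACCC in 31.5% and TGCTGA in 19.5%, so each is a common string of letters.

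Stab2 fell in MCD livers. Control livers had 51.0 CPM at the lowest, 75.2 at the median and 92.3 at the highest, and MCD livers 31.8, 43.2 and 50.7. All 12 MCD livers were below all 12 control livers, although the highest MCD liver (replicate 4) and the lowest control liver (replicate 1) differed by little, and the separation was lost with total counts and on the endothelial scale. Means were 72.7 ± 12.9 CPM and 41.6 ± 6.00 CPM (SD, n = 12 each), a log2 fold change of -0.81 (SE 0.10, FDR = 7.32e-08 by edgeR). With total counts in place of TMM the log2 fold change was -0.46, which is inside the fold limit (edgeR FDR = 0.00148).

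Stab1 did not fall. Control livers had 64.2, 86.8 and 118 CPM (lowest, median, highest) and MCD livers 86.1, 105 and 129. The ranges overlapped, with 6 control livers below every MCD liver and 2 MCD livers (replicates 2 and 8) above every control liver. The log2 fold change was 0.29 (SE 0.09, 95% CI 0.10 to 0.48, FDR = 0.00717 by edgeR), under the fold limit, and with total counts it was 0.66 and past it. The ratio of Stab1 to Stab2 within a library does not depend on the scaling. It ran from 1.02 to 1.51 with a median of 1.15 in control livers and from 2.04 to 3.50 with a median of 2.36 in MCD livers, so each of the 12 MCD livers was above all 12 control livers. Stab1 is also made by macrophages, and the 7 macrophage markers examined were all higher in MCD livers, with a summed level of 115 to 330 CPM in control and 1075 to 2607 CPM in MCD. Their part in the Stab1 value was not tested.

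**Figure D2:**
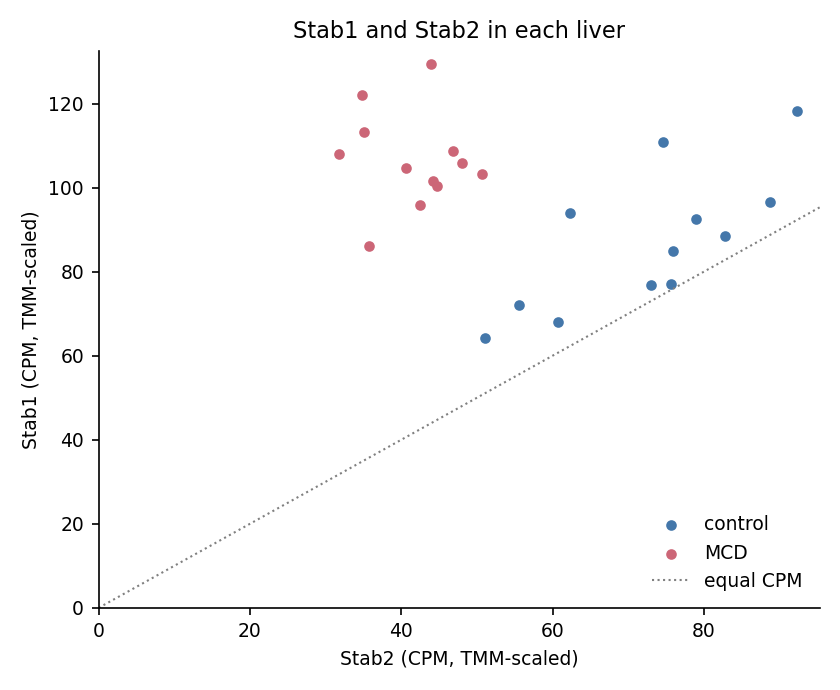
Stab1 against Stab2 in each liver (TMM-scaled CPM, linear axes from 0), with control livers in blue, MCD livers in red and a dotted line where both are equal. Control livers lie just above the line with ratios up to 1.51, and MCD livers lie apart to the upper left with ratios of 2.04 or more.

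Kdr encodes VEGF receptor 2, the main signaling receptor for VEGF-A on endothelium, and lies at chr5:75932827-75978458 on the minus strand. In MCD livers the fitted level of Kdr was 0.460 of that in control livers. Control livers had 21.04, 52.5 and 61.6 CPM (lowest, median, highest) and MCD livers 14.7, 23.9 and 30.1. The low control value came from replicate 12 alone, and the other 11 control livers, at 41.5 CPM or more, were above every MCD liver. Means were 50.1 ± 11.4 and 23.1 ± 3.99 CPM (SD, n = 12 each), and the log2 fold change was -1.12 (SE 0.13, FDR = 3.70e-08 by edgeR). With total counts it was -0.79 and still past the threshold. The Kdr start window, shown for the receptor at the head of the VEGF axis, lies at chr5:75978406-75978705.
Kdr: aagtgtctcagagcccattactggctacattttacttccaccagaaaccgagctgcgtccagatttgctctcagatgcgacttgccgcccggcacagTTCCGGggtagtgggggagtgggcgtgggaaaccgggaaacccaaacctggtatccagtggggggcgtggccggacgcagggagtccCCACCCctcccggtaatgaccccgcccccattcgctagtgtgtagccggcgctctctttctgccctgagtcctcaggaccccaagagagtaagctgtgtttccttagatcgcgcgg
It held CCGGAA (ETS family) on the opposite strand at -153, which reads TTCCGG above, and CCACCC at -66. CCGGAA was in 14.9% of all windows.

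Of the other 7 genes of the VEGF axis, 6 passed the low-count filter, and of these 3 were lower, 1 was higher and 2, Flt1 (-0.43 on the log2 scale) and Nrp1 (-0.31), did not pass the threshold. Of all genes tested 19.1% were lower and 19.2% higher, and a single higher gene of 6 is near that share. Vegfa, the main ligand of Kdr, fell from 135 ± 40.1 to 79.7 ± 10.2 CPM (SD, n = 12 each; log2 fold change -0.76). Vegfb (-0.60), which binds VEGF receptor 1, and Nrp2 (-0.83), a neuropilin co-receptor, were the other falls. Vegfc, the ligand of VEGF receptor 3, rose from 3.70 ± 0.591 to 6.12 ± 0.929 CPM (log2 fold change 0.72), and 11 of 12 MCD livers were above every control liver. Vegfb was not past it without control replicate 12 (-0.44). With total counts Vegfc stayed past the threshold, and Vegfa, at -0.42, and the other 2 falls did not.

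Oit3, a ZP-domain protein and marker of sinusoidal endothelium, had the lowest log2 fold change of the 10 genes. It lies at chr10:59422958-59441778 on the minus strand. Control livers had 16.9, 34.7 and 41.9 CPM (lowest, median, highest) and MCD livers 7.78, 14.5 and 21.004. As with Kdr, control replicate 12 was the one control liver within the MCD range. Oit3 was at 32.9 ± 7.74 CPM in control and 14.4 ± 3.69 CPM in MCD (SD, n = 12 each), a log2 fold change of -1.19 (SE 0.15, FDR = 1.02e-07 by edgeR). With total counts it was -0.87 and past the threshold.

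Clec4g (LSECtin), a C-type lectin of the sinusoidal surface, fell by less and sat at the edge of the fold limit. It lies at chr8:3707064-3720651 on the minus strand. Control livers had 40.5, 49.3 and 67.1 CPM (lowest, median, highest) and MCD livers 25.6, 36.3 and 48.0, and 10 of 12 MCD livers were below every control liver. Means were 52.0 ± 9.57 and 36.1 ± 5.92 CPM (SD, n = 12 each), with a log2 fold change of -0.53 (SE 0.10, FDR = 5.89e-05 by edgeR). The fold limit was missed in 13 of the 24 fits that left out 1 library (log2 fold change -0.496 to -0.445). Those were the fits without control replicates 1, 5, 7 or 12, or without MCD replicates 2, 3, 4, 5, 7, 8, 10, 11 or 12. With relative log expression factors the value was -0.47 and with total counts -0.16, and neither was past the limit.

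Lyve1 and Fcgr2b did not pass the threshold. Lyve1, a hyaluronan receptor of sinusoidal and lymphatic endothelium at chr7:110850607-110863239, had 6.66, 15.9 and 30.3 CPM in control livers (lowest, median, highest) and 6.04, 10.4 and 24.05 CPM in MCD livers. Livers of 1 diet were widely scattered, the ranges overlapped almost fully, and the log2 fold change was -0.47 (SE 0.24, FDR = 0.0867 by edgeR). Fcgr2b, an inhibitory Fc receptor through which sinusoids clear immune complexes, lies at chr1:170958617-170976547. It had 35.4, 47.0 and 62.9 CPM in control livers and 31.9, 39.5 and 44.6 CPM in MCD livers. Its log2 fold change of -0.34 (SE 0.08, FDR = 0.00111 by edgeR) was inside the fold limit, and with total counts it was 0.01. Fcgr2b is also made by B cells and macrophages. The summed level of 5 B cell markers was 3.41 to 15.4 CPM in control and 7.51 to 14.3 CPM in MCD livers, and 1 of the 5 (Cd79b) was past the threshold, higher, joined by Cd79a (0.73) without control replicate 3. The part of these cells in the Fcgr2b value was not tested, and reads may also be shared with other Fc receptor genes of similar sequence.

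Cd34, a sialomucin of capillary endothelium, of blood progenitors and of some fibroblasts, rose in MCD livers more than any other of the 10 genes moved. It lies at chr1:194938819-194961279 on the plus strand, and its start window at chr1:194938571-194938870 is shown because it is the member that rose.
Cd34: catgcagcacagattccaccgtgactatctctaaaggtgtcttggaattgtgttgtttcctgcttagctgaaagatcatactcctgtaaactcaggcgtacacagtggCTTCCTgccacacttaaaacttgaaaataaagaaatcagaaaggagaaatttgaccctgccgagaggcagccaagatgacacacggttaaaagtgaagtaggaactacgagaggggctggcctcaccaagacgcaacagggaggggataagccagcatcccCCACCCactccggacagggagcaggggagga
It held AGGAAG on the opposite strand at -142 (CTTCCT above) and CCACCC at 20. The RefSeq table holds 6 windows for the 10 genes (Stab1, Stab2, Clec4g, Fcgr2b, Kdr and Cd34). None of the 6 held AGATAA, searched for the GATA family and present in 11.2% of all windows, or ACAAAG, searched for the SOX family and present in 18.7%. Among the other 2 windows, Clec4g had 3 matches to AGGAAG and 1 to CCACCC, and Fcgr2b had 1 match to CCACCC and 1 to TAAACA (FOX family, 13.4%). Lyve1, Oit3, Plvap and Vwf were not matched.

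Control livers had 18 to 93 Cd34 counts, or 1.17, 1.88 and 5.26 CPM (lowest, median, highest). MCD livers had 235 to 630 counts, or 9.16, 13.3 and 26.8 CPM. No MCD liver reached down to the highest control liver (replicate 4), and MCD replicates 8 (26.8 CPM) and 2 (19.4 CPM) were the highest. Means were 2.33 ± 1.22 and 14.5 ± 4.83 CPM (SD, n = 12 each), a log2 fold change of 2.62 (SE 0.23, 95% CI 2.16 to 3.09, FDR = 2.51e-10 by edgeR). Leaving out any 1 library gave 2.54 to 2.79, and none of the alternative settings run ended the call. The 5 portal fibroblast markers, a cell type that also carries Cd34, were all higher too, namely Dpt (3.25 on the log2 scale), Mfap4 (2.59), Fbln1 (2.44), Thy1 (1.87) and Entpd2 (1.01). Their summed level was 12.5 to 44.1 CPM in control and 77.7 to 187 CPM in MCD livers. Their part in the Cd34 rise was not tested. Relative to Dpt, Cd34 ran from 0.280 to 0.740 (median 0.398) in control and from 0.213 to 0.309 (median 0.248) in MCD livers. Relative to Pecam1 (CD31), the junction protein of all endothelium, it ran from 0.0531 to 0.209 in control and from 0.623 to 1.78 in MCD livers.

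The other continuous-vessel genes, Plvap and Vwf, did not pass the threshold. Plvap (chr8:71497765-71511752) had 60.4, 101 and 127 CPM in control livers (lowest, median, highest) and 52.2, 92.6 and 119 CPM in MCD livers, with a log2 fold change of -0.13 (SE 0.14, 95% CI -0.41 to 0.15, FDR = 0.416 by edgeR). The MCD livers with the most Cd34, replicates 8 and 2, had the least Plvap of their diet (52.2 and 61.3 CPM), whereas the control livers with the most Cd34, replicates 4 and 8, had 123 and 116 CPM of Plvap, above their median. Vwf (chr6:125546774-125686679) had 7.71, 10.1 and 14.5 CPM in control and 8.04, 10.4 and 16.3 CPM in MCD livers, with a log2 fold change of 0.05 (SE 0.13, 95% CI -0.21 to 0.31, FDR = 0.726 by edgeR). The diets overlapped along nearly the whole range of both genes. The direction of the Plvap value was not stable, being 0.01 with upper-quartile factors and 0.21 with total counts, still not past the threshold. Vwf is made by platelets and megakaryocytes as well. Of 5 platelet markers, 2 passed the low-count filter, of which Pf4 (2.17 on the log2 scale) was past the threshold and Itga2b (-0.41) was not, while Ppbp, Gp9 and Gp1ba did not exceed 20 counts in any library. Gp1ba passed the filter only in some fits that left out a library, and was called lower without control replicate 2, 8, 9, 11 or 12 or MCD replicate 1, 9 or 11 (log2 fold change -0.94 to -0.80). The part of platelets in the Vwf value was not tested.

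Of 12 genes shared by all endothelium, 8 were lower in MCD livers on the TMM scale, where 19.1% of all genes tested were lower. Of the rest, 0 were higher and 4 (Egfl7, Esam, Icam2 and Eng) did not pass the threshold. The median log2 fold change of the 12 was -0.74. With total counts 6 were lower (6.01% of all genes tested were), 3 had a log2 fold change above 0 and the median was -0.41. The largest falls were those of Ptprb (-1.22), a phosphatase at endothelial junctions, the surface protein Mmrn2 (-1.08) and the angiopoietin receptor Tek (-1.08). The geometric mean of the 12 genes was 15.6, 21.1 and 23.6 CPM in control livers (lowest, median, highest) and 10.1, 12.6 and 15.9 CPM in MCD livers, and only MCD replicate 9 reached the control range. The members were therefore also expressed relative to these 12 genes, by scaling each library to their geometric mean.

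On that endothelial scale 1 sinusoidal gene was lower, 1 was higher, and all 3 continuous-vessel genes were higher. Scaling to the 12 genes raised the median log2 fold change of all genes by 0.67, and 52.6% of all genes tested were then called higher and 2.37% lower, so calls higher have a high background here. The 12 genes themselves ran from -0.54 (Ptprb, called lower) to 0.59 (Icam2, called higher), and Eng (0.502) was also called higher. The Oit3 and Plvap values below lie inside that range. Oit3 (-0.51, edgeR FDR = 0.000162) was the sinusoidal gene still past the threshold, lower. Kdr (-0.44, edgeR FDR = 0.000626) was inside the fold limit, and Stab2 (-0.12, edgeR FDR = 0.328) was not past the threshold. Stab1 (0.98), Cd34 (3.34), Vwf (0.74) and Plvap (0.54) were past the threshold, higher. Clec4g (0.12), Lyve1 (0.21) and Fcgr2b (0.35) turned to the other direction and were not past it. With total counts alone, 2 sinusoidal genes (Oit3 and Kdr) were lower and 1 (Stab1) higher, against 6.01% of all genes lower and 32.2% higher. That scaling raised the median of all genes by 0.37. The share of all called genes that were higher was 50.2% with TMM, 65.6% with upper-quartile factors, 84.3% with total counts and 95.7% on the endothelial scale.

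**Figure D3:**
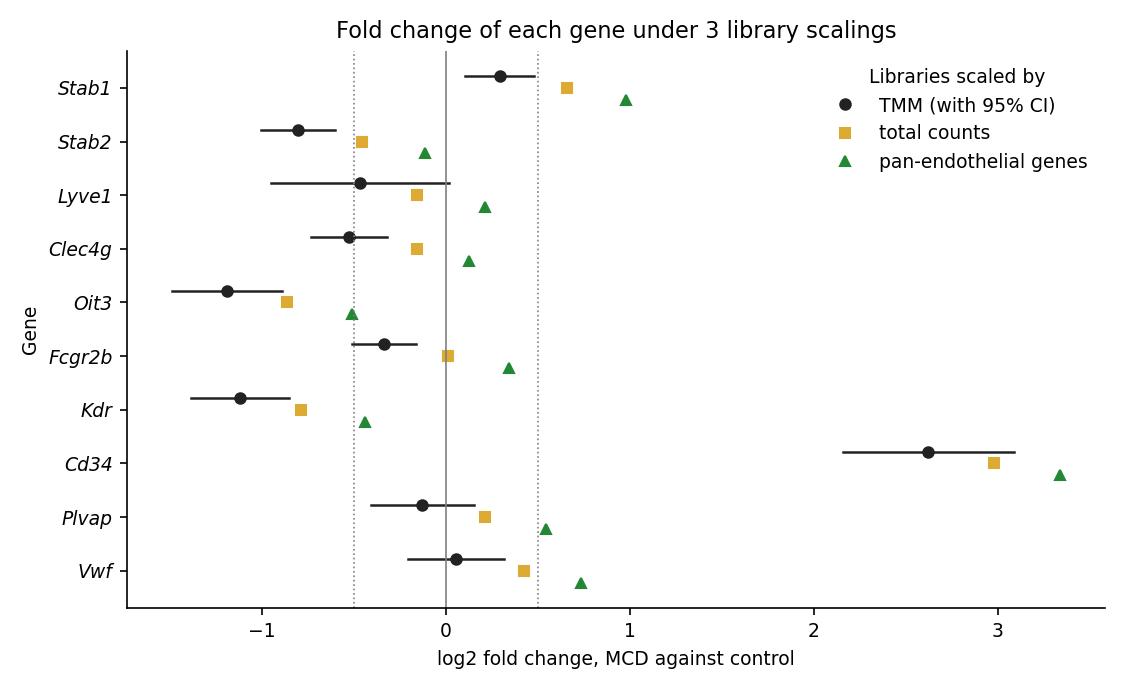
The log2 fold change (MCD against control) of each gene with libraries scaled by TMM (black circles with 95% confidence intervals), by total counts (yellow squares) or by 12 pan-endothelial genes (green triangles), with dotted lines at the fold limit of 0.5. Cd34 stays far to the right on all 3 scales, from 2.62 to 3.34, Oit3 stays below -0.5, and Plvap, Fcgr2b, Lyve1 and Clec4g cross 0.

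Ratios to Pecam1 within a library need no scaling and are given as a description. Oit3 to Pecam1 was 1.29 to 1.67 in control (median 1.51) and 0.716 to 1.29 in MCD livers (median 1.05), with 11 of 12 MCD livers below every control liver. Kdr to Pecam1 had a median of 2.46 in control and 1.68 in MCD livers, and 7 MCD livers were below every control liver. The ratios of the other members except Cd34 overlapped between the diets, with at most 2 MCD livers outside the control range on one side. Control replicate 12 had the highest control ratio of Stab1, Stab2, Clec4g, Fcgr2b, Plvap and Vwf, and the lowest of Kdr. For Stab1 that highest ratio was 9.22, where MCD livers ran from 5.44 to 11.2. The overlap without replicate 12 was not computed. Among these, the median ratio to Pecam1 went from 3.79 in control to 7.56 in MCD livers for Stab1, from 4.25 to 6.67 for Plvap and from 0.463 to 0.751 for Vwf. The medians of Stab2, Lyve1, Clec4g and Fcgr2b in MCD livers were 0.901 to 1.26 times those in control livers.

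A further 11 genes typical of sinusoidal endothelium were counted to set the 7 in context. Of these 8 were lower, 0 were higher, and the median log2 fold change was -0.64, where 19.1% of all genes tested were lower. The largest falls were F8, the clotting factor VIII that liver endothelium makes (13.6 ± 3.26 to 5.17 ± 1.37 CPM, SD, n = 12 each; -1.40), Dnase1l3, a secreted DNase (47.4 ± 7.36 to 21.3 ± 3.75 CPM; -1.15) and the orphan receptor Gpr182 (39.6 ± 7.13 to 20.8 ± 4.07 CPM; -0.93). Dnase1l3 and Gpr182 did not overlap between the diets. Clec1b (-0.39), Fam167b (-0.11) and Plxnc1 (-0.42) did not pass the threshold. With total counts 4 of the 11 remained called lower, against 6.01% of all genes tested. On the endothelial scale 1 was lower and 1 higher, against 2.37% and 52.6% of all genes.

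Of 14 transcription factors and angiocrine signals of the sinusoid, 3 were lower, 3 were higher and the median log2 fold change was -0.19. Both counts are near the share of all genes tested that were lower (19.1%) or higher (19.2%), so they are no result about the group. Gata4, a transcription factor that specifies sinusoidal identity, fell from 24.3 ± 4.70 to 15.5 ± 3.51 CPM (SD, n = 12 each; -0.65). Bmp2 (-0.86) and Bmp6 (-0.64), secreted by liver endothelium to control hepcidin and iron, were the other falls. Id1, a target of BMP signaling, rose from 16.3 ± 7.40 to 35.0 ± 7.06 CPM (log2 fold change 1.10), and 9 MCD livers were above every control liver. Tfec (0.63) and the flow-responsive factor Klf4 (0.62) were also higher, although 9 of the 24 fits without 1 library lost Tfec, and 6 lost Bmp6 (without control replicate 3 or MCD replicate 2, 3, 4, 6 or 12, at -0.60 to -0.54). Gata4 is made by stellate cells too and Id1 by hepatocytes, and the values do not separate the sources. With total counts Gata4 (-0.29) was not past the threshold, and the 14 genes gave 4 higher and 1 lower.

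Of 16 markers of other vessel types 13 passed the low-count filter, and 4 were higher and 3 lower. Of all genes tested 19.2% were higher and 19.1% lower. The count of 3 lower is near that share, as is the count of 3 higher left without MCD replicate 10. Ly6c1 (1.73), Ly6a (1.66), Cav1 (1.04), which shapes caveolae, and the arterial connexin Gja4 (0.55, or 0.49 without MCD replicate 10) were higher. Sox17 (-0.62), an arterial transcription factor, the venous and capillary sialomucin Emcn (-0.55) and the arterial ligand Efnb2 (-0.55) were lower. The 3 falls sat near the fold limit. With total counts, relative log expression factors or upper-quartile factors 0 genes of the list were called lower, as was the case without MCD replicate 2, 3, 8 or 12, and 1 was called lower without control replicate 3 or 12 or MCD replicate 5 or 7. Counts of Ly6a and Ly6c1 are uncertain, since reads can be shared within the Ly6 family. Aplnr, Apln and Sele had at most 15 counts in any library and were not tested.

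Of 12 basal lamina genes, whose products underlie continuous capillaries, 7 were higher and 1 lower, with a median log2 fold change of 0.59. Of all genes tested 19.2% were higher and 19.1% lower. Leaving out 1 library gave 5 to 7 higher genes, since Nid1 lost its call in 9 of the 24 fits and Lamb1 in 7. The summed level of the list had a median of 1521 CPM in control and 1309 CPM in MCD livers. Col15a1, a collagen of vessel basement membranes, had 7.92, 10.1 and 18.8 CPM in control livers (lowest, median, highest) and 23.6, 37.6 and 50.4 CPM in MCD livers, a log2 fold change of 1.68, and the diets did not overlap. Lama5 (1.59) and Col4a2 (1.33), a laminin and a type IV collagen chain, followed. Col18a1, a collagen that hepatocytes make in quantity, was the gene that was lower (-0.76). With total counts 8 of the 12 were higher and 0 lower, and without control replicate 7, 9, 10 or 12 the count of lower genes was 2, as Nid2 (-0.53 to -0.51) was then past the limit. These genes are also made by stellate cells and fibroblasts, and of 6 mesenchymal markers 5 were higher (Col1a1 2.88, Col1a2 2.34, Pdgfrb 1.69, Des 0.93 and Dcn 0.77 on the log2 scale) and Lrat, which serves retinoid storage in quiescent stellate cells, was lower (-0.93, but not past the threshold with total counts). The summed level of the 6 markers was 144 to 403 CPM in control and 530 to 909 CPM in MCD livers. Their part in the basal lamina values was not tested.

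**Figure D4:**
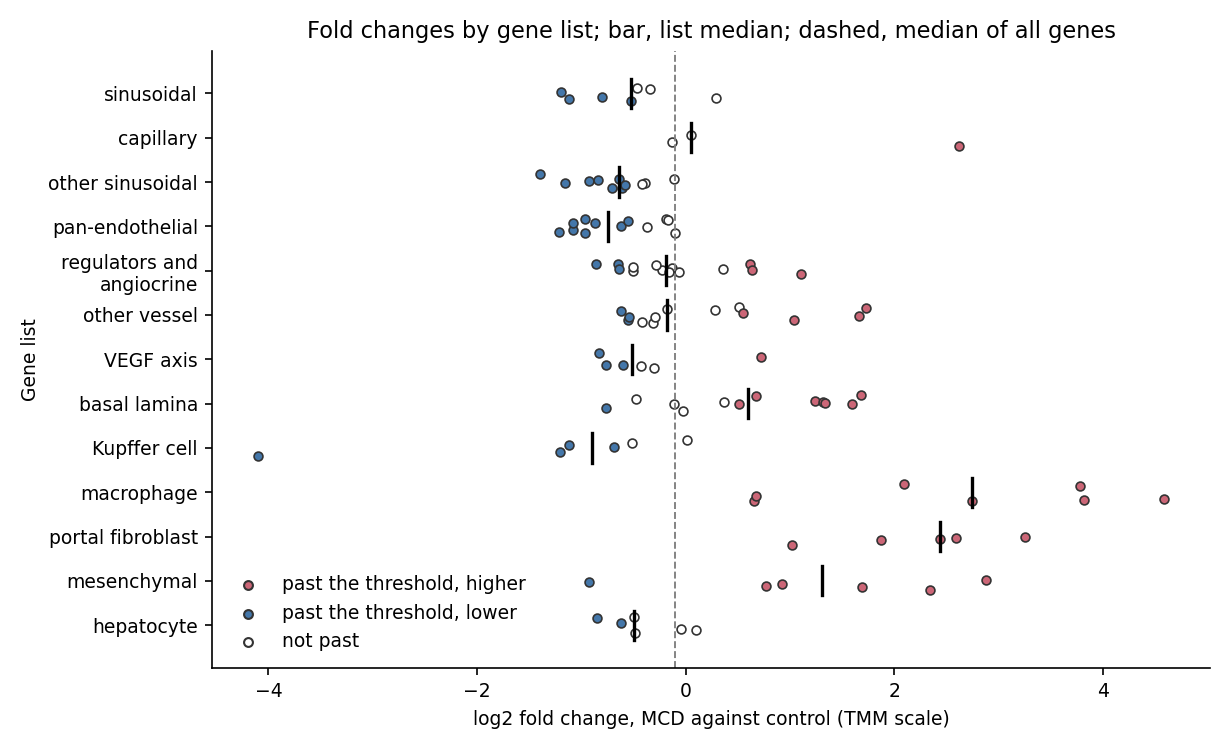
The log2 fold changes (MCD against control, TMM scale) of every tested gene in 13 lists, with filled points past the threshold (red higher, blue lower), open points not past it, a black bar at each list's median and a dashed line at the median of all genes (-0.10). The sinusoidal (median -0.53), other sinusoidal (-0.64) and pan-endothelial (-0.74) lists lie to the left, as do the Kupffer cell (-0.90), VEGF (-0.51) and hepatocyte (-0.49) lists, and the macrophage (2.75), portal fibroblast (2.44), mesenchymal (1.31) and basal lamina (0.59) lists lie to the right.

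Markers of other liver cells were measured in the same libraries, where 19.1% of all genes tested were lower and 19.2% higher. Of 6 Kupffer cell markers 4 were lower (Timd4 -4.10, Marco -1.20, Clec4f -1.11 and Vsig4 -0.68 on the log2 scale, the last not past the threshold in 9 of the 24 fits without 1 library), with a summed level of 144 to 440 CPM in control and 85.8 to 311 CPM in MCD livers. Timd4 alone was called lower with total counts and on the endothelial scale, and Marco also lost its call with limma-voom. The 7 macrophage markers were led by Trem2 (4.59), Itgax (3.82) and Lyz2 (3.78). Of 4 lymphatic markers 2 passed the low-count filter, of which Pdpn was higher (3.44) and Prox1, which hepatocytes also make, lower (-0.86, but not past the threshold with total counts). Alb, at 37950 CPM or more in every library, marked the tissue as liver. Of 6 hepatocyte markers 2 were lower (Ttr -0.85 and Alb -0.62), beside 19.1% of all genes tested. The other 4 (Apoa1, Tat, Cps1 and Hnf4a) did not pass the threshold. With total counts 0 of the 6 were lower (Ttr -0.43, Alb -0.24), and with upper-quartile factors 1 was. Cps1 and Hnf4a lay close to the fold limit (-0.49 each) and were both called lower without control replicate 8 or 11 or MCD replicate 1 or 9. The part of these cell types in the member values was not tested.

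Per kilobase of exon, Plvap was the most abundant of the 10 genes in both diets, at 48.9 ± 11.9 CPM per kb in control and 44.7 ± 9.71 CPM per kb in MCD livers (SD, n = 12 each). Clec4g came next (21.1 and 14.7 CPM per kb), below Plvap in every liver. In control livers Oit3 (11.8), Stab1 (8.46), Fcgr2b (8.34), Stab2 (8.30), Lyve1 (5.82) and Kdr (5.55) followed in CPM per kb, and each range overlapped that of its next neighbor as far as Kdr, which was above Vwf without overlap. Vwf (0.651) and Cd34 (0.320) were last, and Cd34 was below Vwf in 11 of 12 control livers. In MCD livers the order in CPM per kb was Stab1 (10.4), Fcgr2b (6.60), Oit3 (5.18), Stab2 (4.75), Lyve1 (4.22), Kdr (2.56), Cd34 (1.99) and Vwf (0.676) after Clec4g. Stab1 was there above Fcgr2b, and Cd34 above Vwf, without overlap. Oit3 thus stood next to Clec4g in control livers and below Fcgr2b in 11 of 12 MCD livers.

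How Stab2 varied with the other members among livers of 1 diet was examined next. Of 18 relations of Stab2 with the other 9 genes (log2 CPM, 12 livers of 1 diet), 0 had an adjusted permutation p below 0.05. The closest was Stab1 in control livers (Pearson r = 0.754, permutation p = 0.00497, adjusted p = 0.0895; Spearman rho = 0.748, p = 0.00683, adjusted p = 0.101), and r was 0.591 without the 2 livers farthest from the median of Stab2. In MCD livers r of Stab2 with Stab1 was -0.057 (permutation p = 0.862, adjusted p = 0.944). Pearson r ran from 0.032 to 0.754 in control and from -0.399 to 0.297 in MCD livers. With total counts 6 of the 9 control relations had an adjusted permutation p below 0.05.

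Several genes overlap an exon of a gene on the opposite strand, which adds uncertainty because the use of strand in counting is not given in the sources used here. These are Stab1 (with Nt5dc2), Stab2 (Gm16268), Clec4g (Gm16553), Fcgr2b (Gm38204) and Cd34 (Gm16897). Lyve1, Oit3, Kdr, Plvap and Vwf have no such overlap in the annotation.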

How the data were processed

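RNA-seq of poly(A) RNA from whole liver covered 24 mice, 12 per diet. The deposited table holds raw counts for each Ensembl gene in each library, not normalized by the authors. The submitters' processing notes name bcl2fastq, STAR 2.7.3a and the mm10 build. The counting program, its annotation and its use of strand are not given for these mouse libraries in the sources used here. The study's methods name a stranded kit without saying for which libraries, and, for reads aligned to the human genome with this STAR version, the exon quantification pipeline and PISCES. Of the 56205 rows 28652 were 0 in every library. Names, coordinates (GRCm38) and exon lengths were taken by identifier from GENCODE mouse release 21, which named 51745 rows.

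Counts were analyzed in R 4.3.3 with edgeR 4.0.16. filterByExpr by diet left 14109 genes, TMM factors scaled the libraries, and MCD was compared with control in all 24 libraries by glmQLFTest without covariates. A call needed an FDR (Benjamini-Hochberg) of at most 0.01 and a log2 fold change beyond 0.5 in either direction, which are limits the study set for human liver. SEs are the absolute log2 fold change over the square root of F. The biological coefficient of variation was 26.8%. Relations across livers used log2 CPM with a prior count of 2 and two-sided permutation tests with 100000 resamples, adjusted over the 18 relations (Python 3.11.15, scipy 1.17.1). Figures were drawn with matplotlib 3.10.9.

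Alternatives were relative log expression, upper-quartile, total-count and pan-endothelial scaling, 2 other count filters, DESeq2 1.42.0, limma-voom (limma 3.58.1), a covariate made from sex-linked expression, the replicate number as a block, a log2 limit of 1, an FDR of 0.05 with no fold limit, and each library left out. The members and lists were chosen with earlier results of these data known. All 10 members are named. From every other list the text names up to 3 genes with the largest absolute log2 fold change past the threshold, and every gene of a count of 5 or fewer in the TMM fit, but not always those behind such counts under other settings. No libraries were identical, and counts of the most similar pair within a diet were dispersed 11.7 times as widely as sampling noise allows. The labels do not say that libraries of a diet came from separate litters or batches, and p-values measure the spread between these libraries. Intervals are at 95% and floors are 3 counts, which cover counting error only.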

Additional observations from a re-analysis of the deposited data

How the results depend on the processing

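Fold changes and counts of calls were computed again under 12 other settings and without each library in turn, and the counts of members that did not overlap and the relations with Stab2 under total-count and pan-endothelial scaling and another prior count. Of the values that answer a comparison, 181 held under the other settings, while 24 moved, 7 reversed, 5 gained and 11 lost their side of the threshold. Without 1 library 419 held and 13 (all Clec4g) lost it, and Cd34 and Oit3 kept theirs throughout. Depth was no limit for the 10 genes, all above the floor of 3 counts in every library. With upper-quartile factors Clec4g was -0.38 on the log2 scale and not past the threshold, Plvap was 0.013, 1710 genes were lower in all, and 5 of the other sinusoidal genes were lower. With total counts Stab1 was 0.66 (past the threshold), Stab2 -0.46 and Clec4g -0.16 (neither past it), Fcgr2b 0.01 and Plvap 0.21, 4540 genes were higher and 848 lower, 1 sinusoidal member was higher and 2 lower, 4 other sinusoidal genes were lower, 0 members were separated downward, and 6 control relations with Stab2 had an adjusted permutation p below 0.05. On the pan-endothelial scale Stab1 was 0.98, Stab2 -0.12, Lyve1 0.21, Clec4g 0.12, Fcgr2b 0.35, Kdr -0.44, Plvap 0.54, Vwf 0.74, Gata4 0.027 and Alb 0.028. On that scale 7426 genes were higher and 334 lower. Higher were 1 sinusoidal member, 3 continuous-vessel members and 2 pan-endothelial genes. Lower were 1 sinusoidal member, 1 other sinusoidal gene and 1 pan-endothelial gene, and 0 members were separated downward. The r of Stab2 changed sign on it with Lyve1 (-0.638 in control, -0.198 in MCD), Oit3 (-0.424 and -0.039), Kdr (control -0.198), Cd34 (-0.34 and 0.147), Stab1 (MCD 0.446) and Fcgr2b (MCD 0.102), and with total counts in MCD livers with Lyve1 (-0.077), Cd34 (0.027), Stab1 (0.178) and Plvap (-0.166). Clec4g also missed the fold limit with relative log expression factors (-0.47), DESeq2 (-0.47), no low-count filter (-0.48) and at least 10 counts in every library (-0.44), the last of which gave 1801 higher genes because fewer genes were tested. With an FDR limit of 0.05 and no fold limit Stab1 (0.29) and Fcgr2b (-0.34) were called, 1 sinusoidal member was higher and 5221 genes were lower. At a log2 limit of 1 Stab2 (-0.81) and Clec4g (-0.53) were not called, leaving 686 lower genes, 2 sinusoidal members, 2 other sinusoidal genes and 3 pan-endothelial genes. Beyond what a setting's own construction explains, the cause was not tested. Leaving out 1 library gave Clec4g -0.57 to -0.445.

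The diets share replicate numbers. Deviations of same-numbered libraries correlated above 0.1 in 8 of 12 pairs but not in all (-0.28 to 0.349, median 0.233), and 2 of 12 control libraries correlated best with their own number, so the libraries were not taken as paired. With the number as a replicate block, 2781 genes were higher and 2430 lower, against 2712 and 2688, the Stab2 value was -0.80, the Cd34 value 2.69, and no member's call changed. Of the genes named beside them, Bmp6, Tfec, Gja4, Marco and Vsig4 lost their calls with the block, which left 2 Kupffer cell markers lower.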

Other observations

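Genes that varied among livers most like Stab2 and Plvap were ranked over 10112 other genes with a mean of at least 5 CPM, by the lower of the 2 Pearson r within a diet (log2 CPM, n = 12 livers each), as a description. For Stab2 these were Asap1 (r = 0.777 in control and 0.735 in MCD livers), Eif2ak4 (0.740 and 0.693), Fam89a (0.677 and 0.708), Man2b2 (0.746 and 0.672) and Adra1a (0.761 and 0.629). Of these, Adra1a was past the threshold between the diets, lower (log2 fold change -1.06), and the other 4 were not. For Plvap they were Aldh1b1 (0.831 and 0.859), Clec1b (0.842 and 0.758), Nudt18 (0.864 and 0.746), Atp9a (0.730 and 0.755) and Gpr182 (0.738 and 0.695). Clec1b and Gpr182 are genes of the other sinusoidal list. All points of a diet share 1 library scaling.

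The relation of Cd34 to 2 genes was examined after the values were seen, with p-values adjusted over the 4 relations. Of the 5 portal fibroblast markers only Dpt, with the largest log2 fold change, was taken, and no other library scaling is given. The source of the Cd34 counts was not tested. Cd34 varied with Dpt, a matrix gene of fibroblasts, in control livers (n = 12, Pearson r = 0.872, permutation p = 0.00016, adjusted p = 0.00032; Spearman rho = 0.811, p = 0.00223, adjusted p = 0.00446). It did so in MCD livers as well (Pearson r = 0.929, permutation p = 2e-05, adjusted p = 8e-05). Spearman rho was 0.916 there (permutation p = 7e-05, adjusted p = 0.00028). Without the 2 livers farthest from the median of Cd34, r was 0.741 in control (permutation p = 0.0131, adjusted p = 0.0261) and 0.807 in MCD livers (p = 0.00517, adjusted p = 0.0207). With Pecam1 the r of Cd34 was 0.262 in control (permutation p = 0.420, adjusted p = 0.560; Spearman rho = 0.517, p = 0.0889, adjusted p = 0.118) and -0.061 in MCD livers (permutation p = 0.854, adjusted p = 0.854; rho = -0.161, p = 0.617, adjusted p = 0.617).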
